A study of Homo sapiens with 18 samples.

Results

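The 66 genes described here encode the ligands and receptors of axon guidance, out of 58381 genes listed in each count table. They were picked out by symbol, and this set was chosen with earlier results of these data known. It holds the semaphorins of classes 3 to 7 (20 genes) with their plexin receptors (9), and the ephrins of type A (5) and type B (3) with their receptors EPHA (9) and EPHB (5). It also holds the netrins (4) with their UNC5 receptors (4), and the slits (3) with their ROBO receptors (4). In all, 35 encode ligands and 31 receptors. The genes were measured by RNA sequencing in 3 established human Ewing sarcoma lines, TC-32, TC-71 and A673. Each line was transfected either with siFLI1, a small interfering RNA against FLI1, or with the control siRNA siNeg, both at 20 nM, with 3 libraries for each of the 6 groups of line and siRNA (18 libraries). The time after transfection is 48 h by the column names for TC-32 and for TC-71, and the time for A673 was not given in the sources used here. All 3 lines are known to carry the EWSR1::FLI1 fusion, the siNeg groups included, and the knockdown is transient and partial. Nothing in the labels says that the libraries of a group came from separate cultures, and the p-values below then measure only the spread between these libraries, which may be technical.

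Axon guidance molecules steer growing axons and migrating cells by attraction and repulsion. Semaphorins signal through plexins, often together with neuropilins, and ephrins bind EPH receptor tyrosine kinases on the neighbouring cell, where both partners can signal. Netrins act through DCC, neogenin and UNC5 receptors, and slits repel through ROBO receptors. All these families also act outside the nervous system, in blood vessel growth, epithelial sheets and mesenchyme, and they are expressed by many tumours. Ewing sarcoma is driven by the EWSR1::FLI1 fusion, a transcription factor with the ETS DNA-binding domain of FLI1, which is known to bind long runs of the tetranucleotide GGAA and to activate genes from them, and to repress other genes, many of them mesenchymal.

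Because GGAA repeats are the known docking sites of the fusion, the GRCh38 genome was searched for runs of at least 4 GGAA units on either strand within 50000 bases of each member's GENCODE start. Such a run lay near 19 of the 66 members (28.8%), against 33.4% of 19760 protein-coding genes. A run of at least 10 units lay near 5 members, EPHA1, EPHA5, EPHB2, NTN4 and UNC5A (7.6%), against 9.9% of protein-coding genes. The axon guidance genes thus had such repeats nearby no more often than protein-coding genes at large. The longest run near each of these 5 genes is printed below with 20 bases on each side, together with the 9-unit run upstream of EPHA7, which had the most negative fold change of any EPH receptor. Runs of 9 units also lay near EPHB4, SEMA4B, SEMA5B and UNC5A and are not printed. Capitals mark the repeat, each sequence is written 5′ to 3′ on the strand that reads GGAA, and the coordinates span the capitals.
EPHA1, 15 units, chr7:143429333-143429392, minus strand: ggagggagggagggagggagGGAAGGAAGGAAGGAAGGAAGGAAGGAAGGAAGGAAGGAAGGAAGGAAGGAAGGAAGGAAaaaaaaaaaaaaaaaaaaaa
EPHA5, 13 units, chr4:65698623-65698674, minus strand: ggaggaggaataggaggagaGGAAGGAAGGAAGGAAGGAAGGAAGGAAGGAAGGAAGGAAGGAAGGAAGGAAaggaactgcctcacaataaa
UNC5A, 12 units, chr5:176858726-176858773, plus strand: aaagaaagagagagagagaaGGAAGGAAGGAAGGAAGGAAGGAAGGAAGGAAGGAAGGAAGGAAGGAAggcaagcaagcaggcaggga
EPHB2, 10 units, chr1:22668983-22669022, minus strand: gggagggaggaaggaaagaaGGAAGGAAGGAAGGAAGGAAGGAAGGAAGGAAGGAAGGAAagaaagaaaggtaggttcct
NTN4, 10 units, chr12:95828075-95828114, plus strand: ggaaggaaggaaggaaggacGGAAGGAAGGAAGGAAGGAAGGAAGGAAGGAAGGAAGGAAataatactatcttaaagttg
EPHA7, 9 units, chr6:93443039-93443074, minus strand: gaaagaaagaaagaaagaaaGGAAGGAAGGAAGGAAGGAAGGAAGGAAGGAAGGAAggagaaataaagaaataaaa
The 15-unit run lay 20506 bases upstream of EPHA1, the 13-unit run 28153 bases upstream of EPHA5, the 10-unit run 41837 bases upstream of EPHB2, the 10-unit run 36905 bases upstream of NTN4 and the 9-unit run 23369 bases upstream of EPHA7. All 5 lay outside the gene. The 12-unit run of UNC5A lay inside the gene, 48230 bases downstream of its start. The data hold no binding measurement, and repeat lengths in these lines can differ from the reference.

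Of the 66 members, 57 had a promoter in the RefSeq table of GRCh38.p14, 89 promoters in all, each reaching from 250 bases before to 50 bases after a start. The GC-box GGGCGG, the core of the site bound by SP1-type factors, was present on either strand in 73.0% of these promoters and in 45.0% of all 35116 promoters. The median GC content was 65.7% against 58.7%. A pair of GGAA units in a row (GGAAGGAA) was in 4.5% against 3.7%, the ETS site CCGGAAGT in 0 of 89 against 4.1%, the AP-1 site TGACTCA in 0 of 89 against 4.9%, and the E-box CACGTG in 4.5% against 7.3%. These matches describe letters in the window and not binding. The 250 bases before the start are printed for PLXNC1 and EFNA1, a receptor and a ligand that rose in all 3 lines, and for EFNB1, the only member that fell in all 3, as RefSeq gives them on the sense strand, with each GGGCGG or CCGCCC in capitals.
PLXNC1, chr12:94148327-94148576, plus strand: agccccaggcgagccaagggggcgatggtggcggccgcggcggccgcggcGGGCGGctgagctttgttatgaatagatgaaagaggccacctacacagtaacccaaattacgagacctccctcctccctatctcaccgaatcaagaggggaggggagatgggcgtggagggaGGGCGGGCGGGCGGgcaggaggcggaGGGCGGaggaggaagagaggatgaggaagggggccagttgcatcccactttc
EFNA1, chr1:155127626-155127875, plus strand: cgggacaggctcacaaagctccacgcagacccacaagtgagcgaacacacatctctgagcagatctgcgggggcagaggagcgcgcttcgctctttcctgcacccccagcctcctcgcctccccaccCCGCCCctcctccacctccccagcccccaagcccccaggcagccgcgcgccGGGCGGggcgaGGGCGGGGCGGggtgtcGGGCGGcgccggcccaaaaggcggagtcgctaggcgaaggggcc
EFNB1, chrX:68828771-68829020, plus strand: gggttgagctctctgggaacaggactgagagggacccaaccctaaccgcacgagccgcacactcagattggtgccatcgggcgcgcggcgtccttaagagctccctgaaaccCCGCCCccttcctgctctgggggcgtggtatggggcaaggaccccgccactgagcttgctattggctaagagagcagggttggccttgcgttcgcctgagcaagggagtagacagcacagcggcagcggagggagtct
EPHA3 and ROBO1, which also rose in all 3 lines, had 0 GC-boxes in their promoters of the table.

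Library totals were 24102487 to 33669271 counts in TC-32, 19685354 to 37234528 in TC-71 and 114564479 to 120993595 in A673. FLI1 itself, whose reads come from the fusion and from unfused FLI1 alike, fell in each line: its mean went from 45.2 ± 2.46 to 22.1 ± 0.465 CPM in TC-32, from 50.9 ± 2.61 to 18.3 ± 1.43 CPM in TC-71 and from 76.2 ± 0.733 to 18 ± 0.35 CPM in A673. The values are CPM, counts scaled to a common library size, given throughout as mean ± SD of 3 libraries or library by library. Of 12 Ewing sarcoma markers, FLI1 among them, those tested all fell (12 in TC-32, 11 in TC-71, 12 in A673). BCL11B, CCK, LIPI, LOXHD1, NR0B1, PAX7, PRKCB, STEAP1 and FLI1 were at least 2-fold lower in each line. CD99, a surface protein used as a marker of the tumour, named here after its values were seen, is listed at 0 in every TC-71 library. The TC-71 table was counted with another program than those of the other lines, per the table names. Whether this 0 comes from the counting or from a lack of CD99 RNA was not tested. The summed CPM of 6 fibroblast markers moved with siFLI1, from 704–740 to 12313–13668 for TC-32, from 227.3–243 to 7177–7279 for TC-71 and from 1199–1254 to 7557–8640.3 for A673, with 6, 6 and 5 of 6 higher. COL1A1, COL1A2 and COL3A1, chains of fibrillar collagens, and LUM, a collagen-binding proteoglycan, were at least 2-fold higher in each line. The 5 immune markers summed to at most 0.902 CPM in every library, the 4 endothelial markers to at most 3.1 CPM, and the 5 epithelial markers to 88.8–316 CPM with siNeg and 124–422 CPM with siFLI1. The part of these markers' shifts in the results below was not tested, and in bulk RNA a change in the number of cells of a type and a change in RNA per cell cannot be told apart.

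More members rose than fell when FLI1 was depleted, in each line. A gene was tested where edgeR's low-count filter passed it, and called where the Benjamini-Hochberg adjusted p of edgeR's quasi-likelihood test was under 0.05. In TC-32, 51 of 66 members were tested, 39 rose, 7 fell and 5 were not past the threshold, against 81.4% of all 16227 genes tested that were called (41.3% higher, 40.1% lower). For TC-71, 52 members were tested, 35 rose, 9 fell and 8 were not past the threshold, against 71.9% of 17085 genes called (36.8% higher, 35% lower). In A673, 61 were tested, 33 rose, 22 fell and 6 were not past the threshold, against 71% of 18444 genes called (35.6% higher, 35.4% lower). The share of called members that rose was thus 84.8%, 79.5% and 60.0%, where among all called genes it was 50.7%, 51.2% and 50.1%. The counts of families and gene lists below stand against these same all-gene shares, and no departure of a single family from them was tested. Median log2 fold changes over the members tested were 1.06, 0.90 and 0.47 for TC-32, TC-71 and A673, against 0.022, 0.018 and -0.007 for all genes. Counted at 2-fold or more, 26, 24 and 22 members rose, against 22.0%, 14.1% and 13.3% of all genes, and 3, 2 and 9 fell, against 15.6%, 9.38% and 9.87%. There was no overlap between siNeg and siFLI1 libraries for 46, 45 and 54 members, against 82.6%, 73.8% and 73.6% of all genes. With A673 scaled by library size alone, 57.4% of called members rose and 40.9% of all called genes did, with the median of all genes shifted to -0.11.

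**Figure D1:**
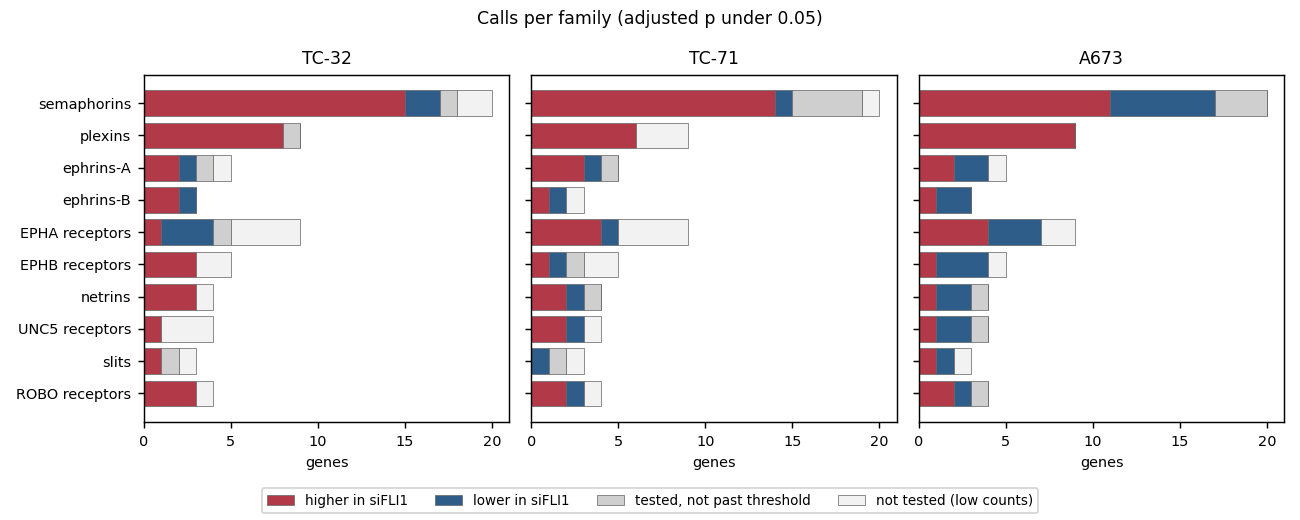
Number of genes (x axis) in each guidance family (y axis) that rose, fell, did not pass the threshold or were not tested after siFLI1, in each of the 3 lines. The plexins have no lower call in any line, with 8, 6 and 9 higher calls, while A673 has more lower calls among semaphorins (6) than TC-32 (2) and TC-71 (1).

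In summed CPM, the receptors carried most of the added counts. These sums are not scaled for transcript length, so long transcripts weigh more in them, and sums per length were not compared. The summed level of the 31 receptors went from 1126 ± 46.2 to 2356 ± 142 CPM in TC-32, from 879 ± 36.0 to 1631 ± 21 CPM in TC-71 and from 1001 ± 7.29 to 1459 ± 68.4 CPM in A673. That of the 35 ligands went from 711 ± 15.6 to 809 ± 32.7 CPM, from 538 ± 3.27 to 775 ± 9.77 CPM and from 621 ± 4.69 to 814 ± 5.07 CPM in the same order. The smaller change of the ligand sum in TC-32 stood beside the fall of a single abundant ligand, EFNB1, described below.

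Of the 46 members tested in all 3 lines, 19 rose in all 3 and 1 fell in all 3, against 18.9% and 19.0% of 14233 genes. The 19 are 11 ligands (EFNA1, EFNA5, NTN4, SEMA3B, SEMA3C, SEMA3F, SEMA4B, SEMA4C, SEMA4F, SEMA6B and SEMA7A) and 8 receptors (EPHA3, EPHB2, PLXNA1, PLXNA3, PLXNB1, PLXNB2, PLXNC1 and ROBO1). The one that fell is EFNB1. Another 18 of the 56 members tested in at least 2 lines rose in one line and fell in another, against 20.2% of 17075 genes. The remaining 28 comprise 15 that rose in some lines only, 6 that fell in some lines only, 3 with no call (NTN5, SEMA3G and UNC5D) and 4 too low to test in any line (EPHA6, EPHA8, EPHB6 and SLIT3).

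**Figure D2:**
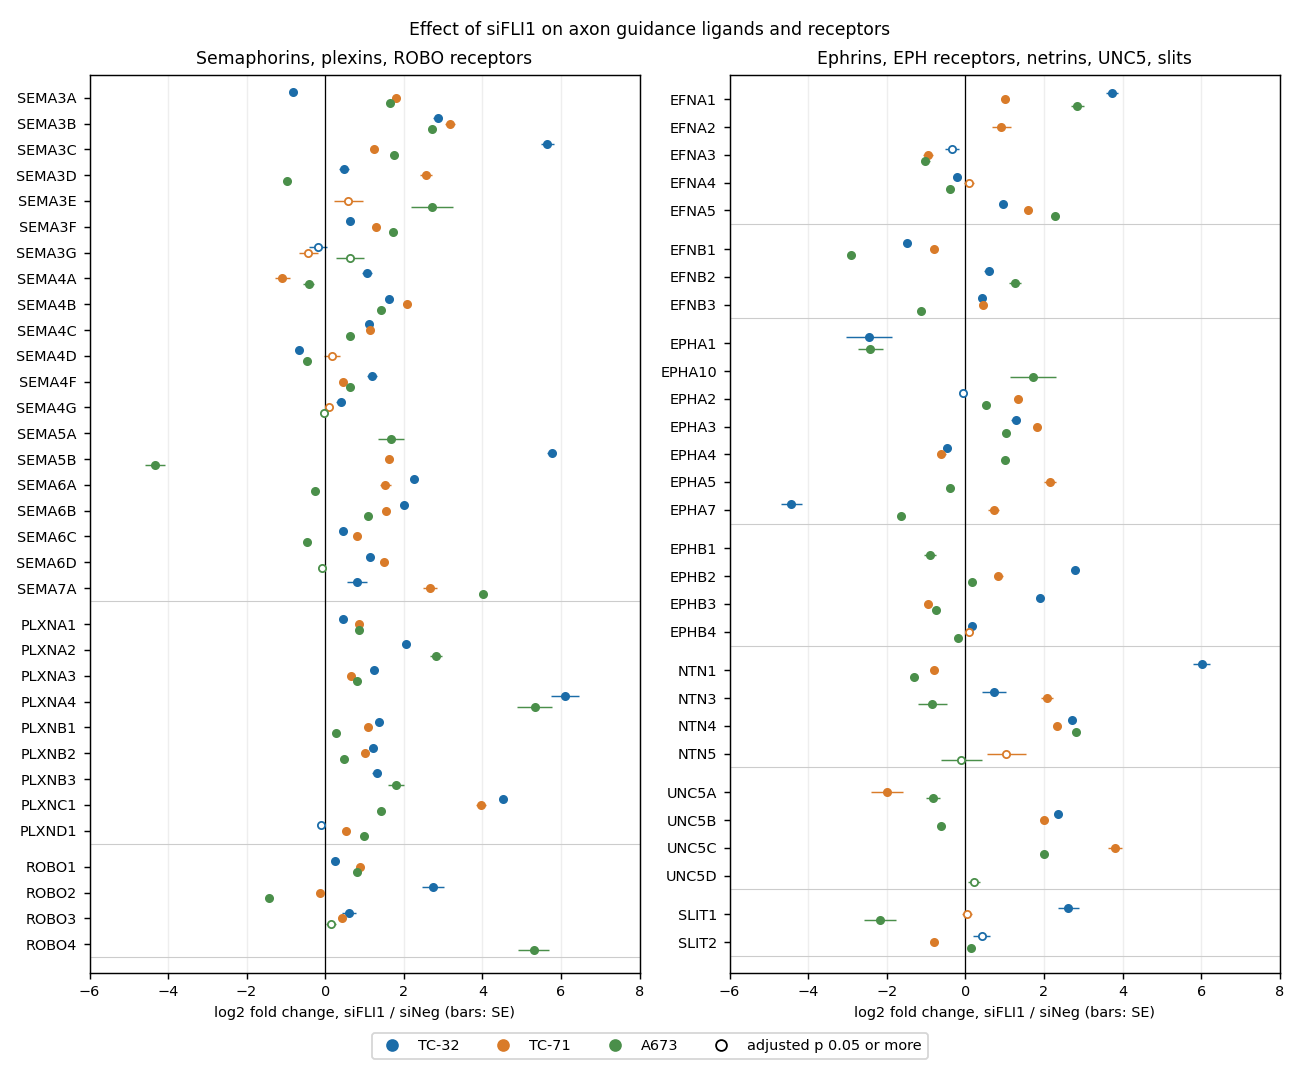
Log2 fold change of siFLI1 over siNeg (x axis, bars are standard errors) for the 62 members tested in at least 1 line (y axis), one colour per line, with open circles where the adjusted p was 0.05 or more. Most points lie right of 0, the plexins with 1 exception (PLXND1 in TC-32), and SEMA5B and NTN1 spread widest between lines.

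Per transcript length, EFNB1 and PLXNB2 were among the 3 highest members in the control cells of each line. Levels between genes are compared here as CPM per kilobase of GENCODE exons (RPKM), and since each line's table was quantified and scaled separately, the order is read within a line, and levels set across lines anywhere below carry that limit. EFNB1, a transmembrane ephrin that binds EPHB receptors, stood first with siNeg in TC-32 (107 ± 2.82 RPKM), where PLXNB2 followed at 41.4 ± 2.14, EPHA2 at 24.7 ± 1.09 and EPHB4 at 18.2 ± 0.773 RPKM. In TC-71, EFNB1 (21.3 ± 0.531 RPKM) and PLXNB2 (21 ± 0.702 RPKM) did not differ beyond their spread, and PLXND1 (17.0 ± 0.584) and SLIT2 (15.4 ± 0.232) came next. EPHA2 took place 27 in TC-71, at 1.48 ± 0.231 RPKM. In A673, EFNB1 (39.1 ± 0.394 RPKM) and EPHA2 (39.1 ± 1.06 RPKM) were level, ahead of PLXNB2 (23.4 ± 0.671) and EPHA3 (15.7 ± 0.496). With siFLI1 the order changed. EFNB1 dropped to place 2, 7 and 16 in TC-32, TC-71 and A673. PLXNB2, the receptor of SEMA4C, moved to first place in TC-32 (96.7 ± 8.66 RPKM) and TC-71 (42.4 ± 1.63 RPKM), and in A673 EPHA2 (56.5 ± 3.86 RPKM) led, with PLXNB2 (32.3 ± 3.03) and EPHA3 (31.9 ± 1.33) next and not apart beyond their spread.

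**Figure D3:**
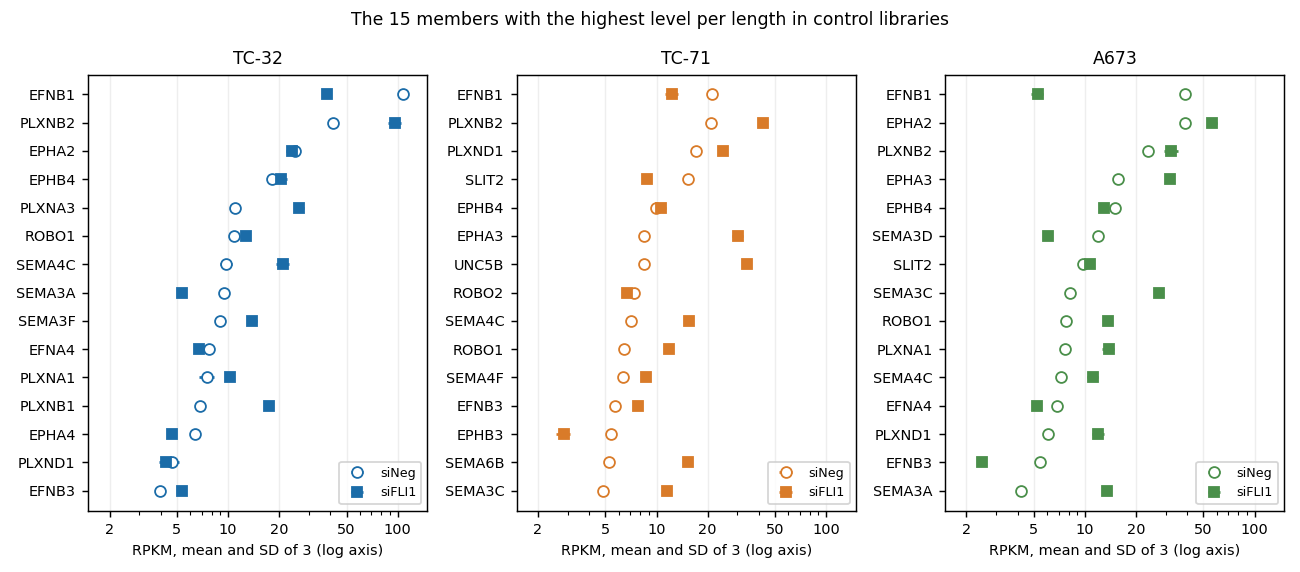
Level per transcript length (RPKM, log x axis, mean and SD of 3 libraries) of the 15 members highest in the siNeg libraries of each line, open circles for siNeg and filled squares for siFLI1. EFNB1 is the top open circle in every panel and its filled square lies to the left, at 38.3, 12.3 and 5.25 RPKM in TC-32, TC-71 and A673.

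Semaphorins, the largest family, rose more often than they fell: 15 of 18 tested rose and 2 fell in TC-32, 14 of 19 and 1 in TC-71, and 11 of 20 and 6 in A673. Of the called semaphorins 88.2%, 93.3% and 64.7% rose in TC-32, TC-71 and A673, against 50.7%, 51.2% and 50.1% of all called genes. The summed level of the semaphorins went from 301 ± 6.56 to 538 ± 24.9 CPM in TC-32, from 219.6 ± 3.41 to 509 ± 14.0 CPM in TC-71 and from 318 ± 4.08 to 547 ± 6.53 CPM in A673. The semaphorins named SEMA3 are secreted and act through plexin-A receptors with neuropilins, those named SEMA4 to SEMA6 are transmembrane proteins, and SEMA7A is held by a lipid anchor. SEMA3B and SEMA3F, a neighbouring pair on chromosome 3 (chr3:50267558-50277546 and chr3:50155045-50189075, both plus strand), both rose in all 3 lines. SEMA3B stood at 2.39, 1.92 and 2.31 CPM in the TC-32 siNeg libraries and at 15.1, 17.4 and 15.5 CPM in the siFLI1 libraries. TC-71 gave SEMA3B values of 2.3, 1.98 and 2.26 CPM and then 20.5, 23.1 and 16.9 CPM, and A673 gave 1.99, 1.87 and 2.23 CPM and then 11.9, 14.3 and 13.8 CPM. The starting levels were close to one another and every siFLI1 library lay above every siNeg library, with log2 fold changes of 2.86, 3.18 and 2.72 in TC-32, TC-71 and A673 (edgeR, adjusted p at most 1.05e-13). SEMA3F, which signals through NRP2, was higher to begin with in TC-32, at 44.8, 40.9 and 44.1 CPM with siNeg and 62.5, 71.3 and 66.6 CPM with siFLI1. In TC-71 SEMA3F went from 14.4, 13.1 and 12.7 to 33.8, 34.5 and 30.3 CPM and in A673 from 3.82, 3.85 and 3.74 to 11.2, 13.6 and 13.1 CPM. No library of one siRNA reached the range of the other (log2 fold change 0.63, 1.29 and 1.73, edgeR adjusted p at most 7.69e-10).

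SEMA3C, a secreted semaphorin that guides neural crest cells into the heart outflow tract, started from very different levels. TC-32 control libraries held 0.502, 0.264 and 0.253 CPM of SEMA3C and siFLI1 libraries 17.4, 17.1 and 17 CPM. For TC-71 the SEMA3C values were 28.5, 30 and 30.2 CPM and 65.9, 70.6 and 74 CPM, and for A673 49.2, 51.3 and 48.2 CPM and 178, 162 and 165 CPM. The gene was nearly silent in TC-32 controls and rose most there, with log2 fold changes of 5.65 (SE 0.168), 1.25 (SE 0.0591) and 1.76 (SE 0.0447) (edgeR, adjusted p at most 3.96e-15). SEMA3C lies on chromosome 7 (chr7:80742538-80922359, minus strand), within a stretch that also holds SEMA3A, SEMA3D and SEMA3E, and these neighbours were not called higher in all 3 lines as it was. SEMA3A, the collapsing factor for sensory growth cones, fell in TC-32 (mean 87.4 ± 1.79 to 49.4 ± 3.02 CPM) and rose in TC-71 (8.89 ± 0.46 to 30.6 ± 2.35 CPM) and A673 (39 ± 1.45 to 124 ± 6.62 CPM). SEMA3D fell in A673 (98.1 ± 2.16 to 50 ± 2.94 CPM) and rose in TC-32 (5.9 ± 1.22 to 8.21 ± 0.704 CPM) and TC-71 (1.45 ± 0.228 to 8.61 ± 1.42 CPM). SEMA3E, the ligand of PLXND1, was low in every line and rose in A673 from 0.0333, 0.0164 and 0.00843 to 0.129, 0.112 and 0.157 CPM.

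Of the transmembrane semaphorins, SEMA4B, SEMA4C, SEMA4F and SEMA6B rose in all 3 lines. SEMA4B libraries of TC-32 stood at 10.1, 11 and 13.5 CPM with siNeg and 35.8, 38.9 and 32.5 CPM with siFLI1. TC-71 had SEMA4B at 7.91, 8.77 and 8.92 and 34.8, 37.3 and 35.6 CPM, and A673 at 9.9, 9.76 and 9.74 and 24.6, 27 and 26.6 CPM. SEMA4B groups lay apart everywhere, with log2 fold changes of 1.63, 2.07 and 1.41 (edgeR, adjusted p at most 5.36e-13). SEMA4C, the ligand of PLXNB2, had the highest control level per length of the 4 in every line, between 7.07 RPKM in TC-71 and 9.74 RPKM in TC-32. SEMA4C rose from 58.5, 57.8 and 66.8 to 118, 141 and 135 CPM in TC-32. SEMA4C in TC-71 went from 44.2, 43.4 and 45.3 to 97.9, 100.4 and 93.7 CPM, and in A673 from 46.2, 45 and 44.3 to 63.3, 73.4 and 71.2 CPM. Its log2 fold changes were 1.11, 1.13 and 0.62 (edgeR, adjusted p at most 1.89e-08), smallest in A673, and its groups did not overlap. SEMA4F, a semaphorin first studied in brain, went from 3.77, 2.94 and 3.49 to 7.17, 8.05 and 8.05 CPM in TC-32. The TC-71 libraries held SEMA4F at 38, 40.5 and 39.8 and 53.2, 54.7 and 53.4 CPM, and those of A673 at 9.26, 8.84 and 8.28 and 13.7, 13.9 and 13.5 CPM. Log2 fold changes of 1.20, 0.45 and 0.64 (edgeR, adjusted p at most 5.31e-08) placed its largest rise in TC-32, where it was lowest. SEMA6B, a plexin-A ligand, went from 7.54, 6.11 and 6.69 to 24.6, 29.3 and 27 CPM in TC-32. TC-71 had SEMA6B at 24.7, 24.5 and 24.9 CPM and 70.9, 76.5 and 68.6 CPM, and A673 at 4.12, 4.43 and 4.22 CPM and 8.65, 9.71 and 8.87 CPM. SEMA6B rose by log2 fold changes of 2.00, 1.54 and 1.09 (edgeR, adjusted p at most 8.33e-10).

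SEMA7A, which binds the receptor PLXNC1 and integrins, was near 1 CPM in the controls of all 3 lines and rose by different amounts. In A673 SEMA7A went from 1.06, 0.754 and 0.928 to 14.5, 14.6 and 14.9 CPM, and the log2 fold change was 4.01 (SE 0.0927, edgeR adjusted p = 1.17e-15). In TC-71 SEMA7A went from 0.854, 0.862 and 0.763 to 5.24, 4.82 and 5.66 CPM (2.67, SE 0.183, edgeR adjusted p = 7.95e-14). In TC-32 SEMA7A went only from 1.21, 0.98 and 0.884 to 1.69, 1.49 and 2.2 CPM (0.80, SE 0.25, edgeR adjusted p = 0.00536). The difference of the effect between TC-32 and A673 was -3.19 on the log2 scale (edgeR interaction test, adjusted p = 7.07e-13). The TC-32 call was lost without siFLI1 library 3.

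The remaining semaphorins had no change shared by all lines. SEMA6A, a plexin-A ligand of boundary cap cells, rose in TC-32 (9.43 ± 0.449 to 45.5 ± 1.3 CPM) and TC-71 (2.72 ± 0.345 to 7.88 ± 0.885 CPM) and fell in A673 (20.5 ± 0.618 to 17.3 ± 0.682 CPM). SEMA6C likewise rose in TC-32 (13.3 ± 0.477 to 18.1 ± 0.214 CPM) and TC-71 (10.1 ± 1.33 to 17.9 ± 1.3 CPM) and fell in A673 (6.0 ± 0.102 to 4.35 ± 0.331 CPM). SEMA6D rose in TC-32 (7.65 ± 0.299 to 16.8 ± 0.526 CPM) and TC-71 (5.84 ± 0.266 to 16.3 ± 1.21 CPM), and in A673 its means were 14.4 ± 0.251 and 13.6 ± 0.712 CPM (edgeR adjusted p = 0.204). These 3 rose in both other lines and not in A673, where SEMA6B was the one SEMA6 gene that rose. SEMA4D, the ligand of PLXNB1, fell in TC-32 (35.4 ± 0.291 to 22.1 ± 1.99 CPM) and A673 (5.97 ± 0.113 to 4.34 ± 0.258 CPM), opposite to its receptor there. SEMA4G rose in TC-32 (5.11 ± 0.383 to 6.71 ± 0.705 CPM) only, with 28.0% of its exon bases covered by genes of the opposite strand. SEMA5A, the paralogue of SEMA5B, was tested in A673 alone and rose from a low level (0.106 ± 0.0487 to 0.337 ± 0.023 CPM). SEMA3G, at 1.62 ± 0.228 CPM in TC-32 controls, was called in no line.

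The plexins, the receptors of the semaphorins, moved in one direction: 8 of 9 tested rose in TC-32, 6 of 6 in TC-71 and 9 of 9 in A673, and none fell. Of all genes tested, 41.3%, 36.8% and 35.6% rose in TC-32, TC-71 and A673. The summed level of the plexins went from 665 ± 37.0 to 1581 ± 107 CPM in TC-32, from 446 ± 21.5 to 808 ± 21.3 CPM in TC-71 and from 391 ± 6.52 to 630.2 ± 54.2 CPM in A673. The plexin not past the threshold was PLXND1 in TC-32, at 49.4, 42.7 and 42.6 CPM with siNeg and 36.8, 44.9 and 42 CPM with siFLI1. PLXNC1, the SEMA7A receptor (chr12:94148577-94307675, plus strand), rose most among the plexins tested in all lines. TC-32 control libraries held 5.23, 4.56 and 4.17 CPM of PLXNC1 and siFLI1 libraries 108, 108 and 106 CPM. TC-71 gave PLXNC1 values of 1.71, 2.69 and 1.7 CPM and 28.2, 33 and 31.4 CPM, and A673 gave 3.04, 3.2 and 2.53 CPM and 8.11, 7.12 and 8.06 CPM. PLXNC1 thus rose in every line, with log2 fold changes of 4.53 (SE 0.0746), 3.97 (SE 0.121) and 1.41 (SE 0.0915) (edgeR, adjusted p at most 7.33e-10). The TC-32 rise of PLXNC1 was 3.14 log2 units larger than the A673 rise (edgeR interaction test, adjusted p = 1.89e-20), the reverse of the order seen for its ligand SEMA7A. Exons of an antisense gene cover 9.9% of PLXNC1's exon bases, and the strand setting of the counting was not given in the sources used here.

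PLXNB2 and PLXNB1, semaphorin receptors that act on small GTPases, were, with PLXNA1, PLXNA3 and PLXND1, the 5 plexins highest per length in the controls of each line. PLXNB2 went from 302, 285 and 316 to 639.7, 766 and 704 CPM in TC-32. In TC-71 PLXNB2 went from 147, 152 and 158 to 308, 319.7 and 296 CPM, and in A673 from 172, 164 and 174 to 213, 257 and 234 CPM. The groups lay apart in all lines, with log2 fold changes of 1.22, 1.01 and 0.47 (edgeR, adjusted p at most 9.03e-07). PLXNB1, the receptor of SEMA4D, went from 66.5, 63.2 and 69.5 to 162, 176 and 172 CPM in TC-32. TC-71 had PLXNB1 at 35, 31.8 and 40.2 and 76.6, 77.8 and 76.8 CPM, and A673 at 29.9, 28.1 and 29.1 and 32.4, 37.6 and 34.8 CPM. Its log2 fold changes were 1.36, 1.10 and 0.27 (edgeR, adjusted p at most 0.000309), the smallest in A673. PLXNA1 and PLXNA3, which transmit signals of secreted semaphorins with neuropilins, rose in all 3 lines as well. PLXNA1 stood at 85.7, 75.6 and 92.4 and 109.8, 122 and 114 CPM in TC-32, at 42.6, 43.3 and 48.8 and 79.1, 85.3 and 78.3 CPM in TC-71, and at 85.4, 85.3 and 86 and 144, 169 and 154 CPM in A673. PLXNA3 stood at 129.5, 122 and 136 and 286, 327 and 310.0 CPM in TC-32, at 47, 45.1 and 53.8 and 78.2, 77.7 and 74.8 CPM in TC-71, and at 45.7, 45.3 and 44.9 and 70, 86.1 and 80.1 CPM in A673. The rises came to log2 fold changes of 0.45, 0.85 and 0.86 for PLXNA1 and 1.25, 0.66 and 0.80 for PLXNA3 in TC-32, TC-71 and A673 (edgeR, adjusted p at most 1.3e-06 and 4.1e-09).

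The other plexins were restricted to certain lines. PLXNA4, a co-receptor for SEMA3A and SEMA6 proteins, was all but absent with siNeg, at 4 counts summed over the 3 TC-32 libraries, and 361 counts with siFLI1, a ratio of rates of 75 (95% interval 29 to 277, counting error only). Its TC-32 level with siFLI1 was 3.53, 4.1 and 4.43 CPM, and in A673 PLXNA4 went from 0.00832, 0.041 and 0 to 0.72, 0.687 and 0.717 CPM. PLXNA4 was too low to test in TC-71, at 0, 0 and 0 and 0.0818, 0.0765 and 0.0269 CPM. PLXNA2 (mean 28.2 ± 1.99 to 118 ± 4.39 CPM in TC-32) and PLXNB3 (6.13 ± 0.786 to 15.1 ± 2.21 CPM) likewise rose in TC-32 and A673 and were too low to test in TC-71. Another gene on the same strand shares 20.4% of PLXNB3's exon bases.

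**Figure D4:**
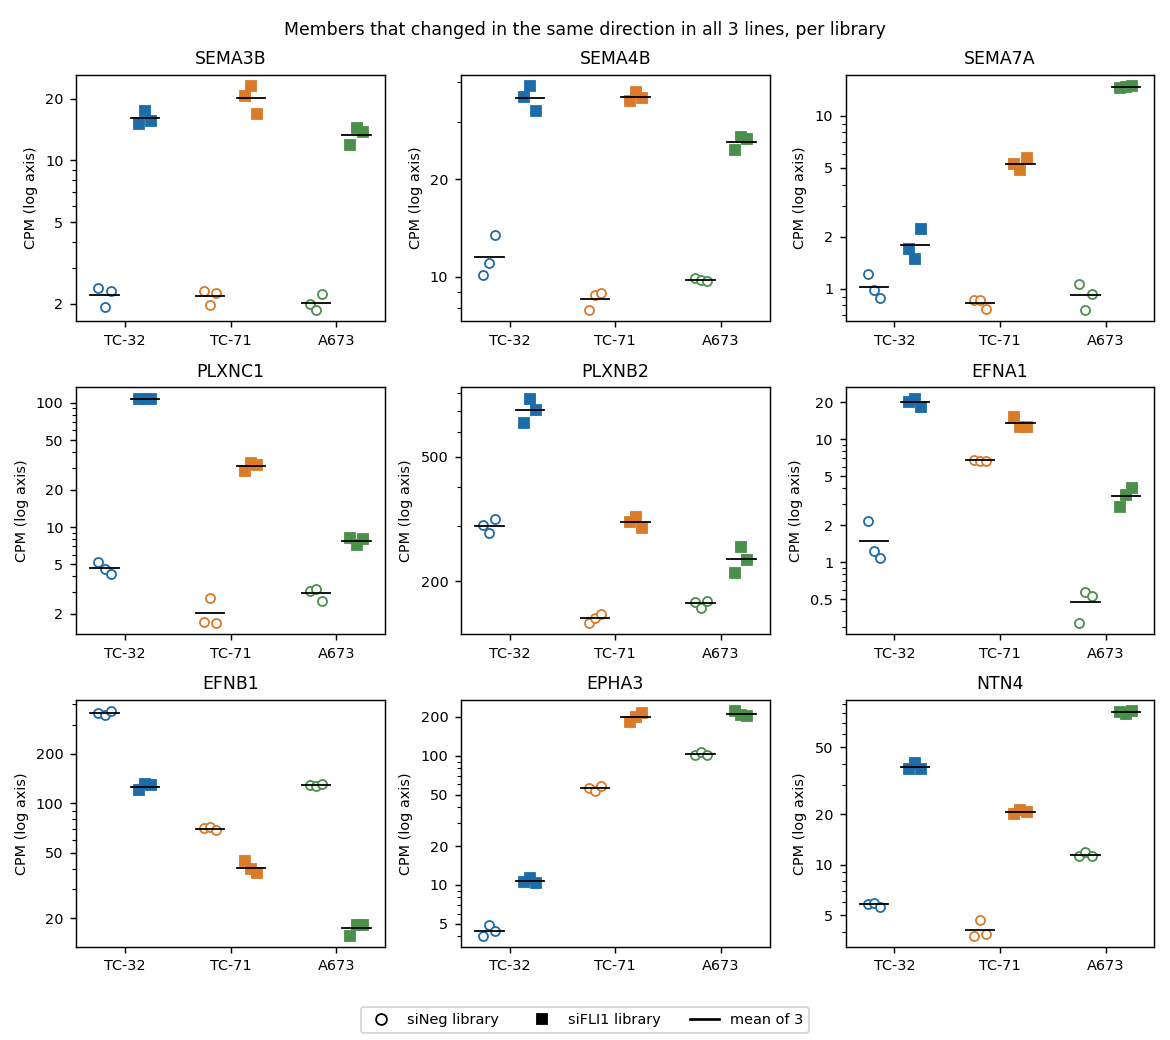
CPM in each library (log y axis) for 9 of the 20 members that changed in the same direction in all 3 lines (x axis), open circles for siNeg, filled squares for siFLI1, bars for the mean of 3. EFNB1 is the panel with filled squares below open circles, and SEMA3B and SEMA7A start from like levels in all 3 lines.

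The type A ephrins, membrane-anchored ligands of EPHA receptors, were led by EFNA1 and EFNA5, which rose in all 3 lines. EFNA1 (chr1:155127876-155134899, plus strand) was low in the controls of TC-32, at 2.18, 1.24 and 1.09 CPM, and reached 20.1, 21.4 and 18.2 CPM with siFLI1. TC-71 had EFNA1 at 6.83, 6.69 and 6.66 and 15.3, 12.7 and 12.5 CPM, and A673 at 0.324, 0.574 and 0.531 and 2.84, 3.54 and 3.99 CPM. EFNA1 libraries did not overlap in any line, and the log2 fold changes were 3.73 (SE 0.149), 1.00 (SE 0.102) and 2.85 (SE 0.175) (edgeR, adjusted p at most 6.28e-10). EFNA5, a repellent of retinal axons, went from 14.3, 16.4 and 15.4 to 30.7, 28.6 and 29.7 CPM in TC-32. The TC-71 libraries held EFNA5 at 11.9, 10.5 and 9.72 and 30.4, 31.9 and 33.9 CPM, and the A673 libraries at 4.0, 4.07 and 4.43 and 20.4, 19.3 and 20.7 CPM. EFNA5 rose by log2 fold changes of 0.95, 1.59 and 2.27 (edgeR, adjusted p at most 1.46e-11). EFNA3 and EFNA4, on the same stretch of chromosome 1 as EFNA1, were called higher in no line. EFNA3 fell in TC-71 (6.06 ± 0.286 to 3.16 ± 0.184 CPM) and A673 (2.66 ± 0.149 to 1.32 ± 0.226 CPM), and EFNA4 fell in A673 (8.59 ± 0.543 to 6.58 ± 0.335 CPM) and in TC-32, where its edgeR adjusted p was 0.0438 and the call was lost under 11 alternatives. Other genes on the same strand share 43.9% of the exon bases of EFNA3 and 15% of those of EFNA4. EFNA2 was tested in TC-71 alone and rose there (1.12 ± 0.408 to 2.08 ± 0.395 CPM).

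EFNB1 (chrX:68829021-68842160, plus strand) was the one member that fell in every line. In TC-32 EFNB1 went from 354, 343 and 362 to 120.1, 131 and 128 CPM. In TC-71 EFNB1 went from 70.7, 71.8 and 68.4 to 44.6, 40 and 37.5 CPM, and in A673 from 129, 128 and 131 to 15.7, 18.1 and 18.2 CPM. Every siFLI1 library lay below every siNeg library, with log2 fold changes of -1.48 (SE 0.0443), -0.79 (SE 0.0595) and -2.90 (SE 0.0531) (edgeR, adjusted p at most 7.66e-13). The fall was deeper in A673 than in TC-71 by a log2 difference of -2.14 (edgeR interaction test, adjusted p = 3.83e-22). The share of EFNB1 in the summed RPKM of the members dropped from 34.2% to 8.71% for TC-32, from 10.8% to 3.62% for TC-71 and from 15.6% to 1.58% for A673. The other two type B ephrins differed. EFNB2, the partner of EPHB4 in vessels, rose in TC-32 (6.01 ± 0.613 to 9.04 ± 0.238 CPM) and A673 (0.957 ± 0.211 to 2.3 ± 0.309 CPM), with 36.4% of its exon bases shared with genes of the opposite strand. EFNB3 rose in TC-32 (12.8 ± 0.633 to 17.1 ± 0.255 CPM) and TC-71 (18.4 ± 0.861 to 25.1 ± 1.44 CPM) and fell in A673 (17.4 ± 0.643 to 7.98 ± 0.259 CPM).

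The EPHA receptors divided between the lines: 1 of 5 tested rose and 3 fell in TC-32, 4 of 5 rose and 1 fell in TC-71, and 4 of 7 rose and 3 fell in A673. Most genes tested were called in each line, and of all called genes 50.7%, 51.2% and 50.1% rose in TC-32, TC-71 and A673. Whether these few EPHA genes depart from that was not tested. EPHA3, a receptor for EFNA5, was the one that rose in all lines. The TC-32 libraries held EPHA3 at 4.06, 4.86 and 4.38 CPM with siNeg and 10.5, 11.4 and 10.3 CPM with siFLI1. TC-71 had EPHA3 at 56, 52.9 and 58.7 and 184, 200.4 and 212 CPM, and A673 at 102, 107 and 101 and 219.9, 205 and 204 CPM. Although TC-32 held far less EPHA3 RNA than the other lines, the log2 fold changes were 1.28, 1.83 and 1.03 (edgeR, adjusted p at most 1.11e-10). EPHA7, a receptor active in forebrain patterning, fell in 2 lines and rose in the other. TC-32 controls held 4.9, 6.45 and 6.31 CPM of EPHA7 and siFLI1 libraries 0.422, 0.297 and 0.102 CPM. A673 had EPHA7 at 16.2, 16.6 and 17 and 5.72, 5.44 and 4.91 CPM, and TC-71 at 3.68, 3.55 and 3.23 and 5.2, 5.55 and 6.25 CPM. EPHA7 thus had log2 fold changes of -4.43 (SE 0.269) in TC-32, 0.72 (SE 0.134) in TC-71 and -1.63 (SE 0.0644) in A673 (edgeR, adjusted p at most 2.33e-05). EPHA2, the EPHA receptor with the highest level in TC-32 and A673, rose in TC-71 (6.12 ± 0.956 to 15.6 ± 1.24 CPM) and A673 (162 ± 4.38 to 234 ± 16 CPM), and in TC-32 its means were 102 ± 4.53 and 98.6 ± 7.25 CPM (edgeR adjusted p = 0.399). EPHA4, which binds ephrins of both types, fell in TC-32 (48.4 ± 2.88 to 35.3 ± 1.89 CPM) and TC-71 (8.93 ± 0.783 to 5.78 ± 0.303 CPM) and rose in A673 (26.8 ± 0.719 to 54.2 ± 0.649 CPM). EPHA5, expressed mainly in brain, rose in TC-71 (1.73 ± 0.246 to 7.64 ± 0.928 CPM), fell in A673 (7.3 ± 0.572 to 5.58 ± 0.16 CPM) and was too low to test in TC-32. EPHA1 fell in TC-32 (0.506 ± 0.149 to 0.0907 ± 0.0804 CPM) and A673 (0.481 ± 0.0939 to 0.0893 ± 0.0254 CPM) from low levels. EPHA10, which lacks kinase activity, was tested in A673 alone, at 0.0832, 0.0082 and 0.0169 and 0.129, 0.129 and 0.105 CPM (edgeR adjusted p = 0.0137), a call lost under 3 alternatives.

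The EPHB receptors rose together in TC-32 (3 of 3 tested) and not in the other lines, where 1 of 3 tested rose and 1 fell in TC-71 and 1 of 4 rose and 3 fell in A673. These few genes stand against the same all-gene shares as the EPHA receptors, and a departure from them was not tested. EPHB2, a receptor for EFNB1 that is known from gut crypts and hippocampal synapses, stood out in TC-32, from 31.4, 30 and 33 to 207, 227.9 and 214 CPM. EPHB2 went from 4.83, 6.24 and 6.04 to 9.86, 9.37 and 11.2 CPM in TC-71 and from 14.5, 13.7 and 14.1 to 14.7, 17 and 16.2 CPM in A673. Its log2 fold changes were 2.78 (SE 0.0543), 0.84 (SE 0.114) and 0.18 (SE 0.0589) (edgeR, adjusted p = 1.69e-23, 1.39e-07 and 0.0115). The A673 call was lost without siNeg library 2 and with scaling by library size alone. EPHB3 rose in TC-32 (9.9 ± 0.295 to 37.3 ± 1.68 CPM) and fell in TC-71 (24.5 ± 0.786 to 12.8 ± 1.2 CPM) and A673 (9.52 ± 0.258 to 5.62 ± 0.671 CPM). EPHB4, the venous receptor of EFNB2, was abundant in every line and moved little: it rose in TC-32 (117 ± 4.98 to 133 ± 10.5 CPM) and fell in A673 (96.3 ± 1.56 to 83.6 ± 5.78 CPM), and in TC-71 its means were 63.6 ± 4.09 and 68 ± 4.96 CPM (edgeR adjusted p = 0.166). EPHB1 was tested in A673 alone and fell (1.02 ± 0.0458 to 0.544 ± 0.0551 CPM).

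Among the netrins, NTN4 rose in every line and NTN1 went opposite ways. NTN4, a netrin that binds laminins in basement membranes (chr12:95657807-95791189, minus strand), went from 5.82, 5.96 and 5.64 to 36.9, 40.2 and 37.2 CPM in TC-32. In TC-71 NTN4 went from 3.79, 4.66 and 3.89 to 20.1, 21.2 and 20.7 CPM and in A673 from 11.3, 11.9 and 11.2 to 80.7, 79.2 and 81.6 CPM. The log2 fold changes were close in size, at 2.71 (SE 0.0809), 2.34 (SE 0.1) and 2.81 (SE 0.0454) (edgeR, adjusted p at most 1.47e-17). NTN1, the founding guidance netrin and the ligand of DCC and UNC5 receptors (chr17:9021510-9244000, plus strand), was almost absent from TC-32 controls, at 0.209, 0.264 and 0.0842 CPM, and reached 11.7, 14.5 and 11.1 CPM with siFLI1. The TC-71 libraries held NTN1 at 18.6, 18.3 and 16.4 CPM with siNeg and 10.8, 10 and 9.72 CPM with siFLI1. A673 had NTN1 at 19.7, 17.9 and 19 and 6.97, 7.95 and 7.79 CPM. The siFLI1 levels of the lines thus lay closer together than the siNeg levels, with log2 fold changes of 6.01 (SE 0.227), -0.80 (SE 0.0872) and -1.32 (SE 0.0626) (edgeR, adjusted p at most 2.16e-09). NTN3 rose in TC-71 (2.19 ± 0.385 to 9.52 ± 1.8 CPM). Its calls in TC-32 (higher, edgeR adjusted p = 0.0324) and A673 (lower, edgeR adjusted p = 0.0499) rested on about 1 CPM or less and were lost under several alternatives. NTN5 stood at 0.191 ± 0.125 and 0.416 ± 0.0367 CPM in TC-71 (edgeR adjusted p = 0.0575) and was lower still in the other lines.

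UNC5 receptors turn netrin attraction into repulsion and can trigger cell death when unbound. UNC5B, the highest of them per length in all 3 lines (2.72, 8.46 and 4.01 RPKM with siNeg in TC-32, TC-71 and A673), rose in TC-32 (18.6 ± 0.981 to 95.4 ± 5.99 CPM) and TC-71 (57.9 ± 1.23 to 233 ± 1.33 CPM) and fell in A673 (27.4 ± 1.0 to 17.8 ± 1.53 CPM). UNC5C led the family by fold change. TC-71 control libraries held 0.706, 0.406 and 0.798 CPM of UNC5C and siFLI1 libraries 8.96, 9.29 and 9.48 CPM. A673 had UNC5C at 6.01, 6.55 and 5.97 and 25.1, 24.7 and 23.9 CPM, while TC-32 was too low to test, at 0.0837, 0.151 and 0.0421 and 0, 0.0297 and 0.102 CPM. Both tested lines gave a rise, with log2 fold changes of 3.80 (SE 0.174) in TC-71 and 1.99 (SE 0.0561) in A673 (edgeR, adjusted p at most 1.51e-14). UNC5A fell in TC-71 (0.954 ± 0.449 to 0.243 ± 0.0262 CPM) and A673 (0.981 ± 0.182 to 0.553 ± 0.0604 CPM). UNC5D was tested in A673 alone, at 0.763 ± 0.137 and 0.886 ± 0.00569 CPM (edgeR adjusted p = 0.237). The other netrin receptors, DCC and neogenin (NEO1), moved apart. DCC fell in each line, from 70.8, 68.4 and 65 to 9.27, 7.54 and 7.61 CPM in TC-32, with log2 fold changes of -3.07, -1.72 and -0.60 in TC-32, TC-71 and A673 (edgeR, adjusted p at most 1.86e-10). NEO1 rose in TC-32 (44 ± 0.86 to 84.6 ± 2.68 CPM) and fell in A673 (130.1 ± 2.11 to 100.5 ± 1.21 CPM), and in TC-71 its means were 5.87 ± 0.293 and 5.84 ± 0.82 CPM (edgeR adjusted p = 0.989).

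Slits and their ROBO receptors showed few shared changes. SLIT2, the slit that dominated TC-71 and A673, went from 172, 168 and 173 to 97.8, 92.1 and 102 CPM in TC-71 and from 106, 110.4 and 109 to 119.9, 118 and 118 CPM in A673. TC-32 held little SLIT2, at 2.18, 1.58 and 1.39 and 2.45, 2.05 and 2.37 CPM. It fell in TC-71 (log2 fold change -0.81, SE 0.0463, edgeR adjusted p = 1.09e-15) and rose slightly in A673 (0.13, SE 0.0364, edgeR adjusted p = 0.00408), a call lost with scaling by library size alone. SLIT1 rose in TC-32, from 0.461, 0.339 and 0.421 to 2.07, 2.5 and 2.98 CPM. In A673 SLIT1 fell from 0.274, 0.164 and 0.278 to 0.0514, 0.0343 and 0.07 CPM, and in TC-71 it stood at 5.2, 4.11 and 4.96 and 5.07, 5.01 and 4.77 CPM. Only the TC-71 libraries overlapped (edgeR adjusted p = 0.79), and the log2 fold changes in TC-32 and A673 were 2.62 (SE 0.276) and -2.18 (SE 0.401) (edgeR adjusted p = 4.28e-09 and 0.00013).

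ROBO1, the broadly expressed slit receptor, was abundant and rose in all 3 lines. ROBO1 stood at 122, 118 and 116 and 142, 144 and 136 CPM in TC-32, at 68.9, 69.5 and 74.3 and 133, 130.2 and 133 CPM in TC-71, and at 84.2, 86.6 and 85.3 and 154, 149.9 and 146 CPM in A673. The rise of ROBO1 came to log2 fold changes of 0.24, 0.89 and 0.81 (edgeR, adjusted p at most 3.18e-05). ROBO2, a neighbour of ROBO1 on chromosome 3 (chr3:75906695-77649964, plus strand), separated the lines. The TC-32 libraries held ROBO2 at 0.544, 0.339 and 0.295 CPM with siNeg and 2.99, 2.64 and 2.37 CPM with siFLI1. TC-71 had ROBO2 at 118, 123 and 128 and 108, 110.4 and 116 CPM, and A673 at 49.6, 51.8 and 49.8 and 19.3, 18.2 and 18.2 CPM. ROBO2 rose in TC-32, fell slightly in TC-71 and fell more in A673. The log2 fold changes were 2.75 (SE 0.277), -0.14 (SE 0.0471) and -1.44 (SE 0.045) (edgeR, adjusted p at most 0.0081). ROBO3, which modulates midline crossing, rose in TC-32 (2.74 ± 0.37 to 4.13 ± 0.761 CPM) and TC-71 (8.37 ± 0.263 to 11.3 ± 0.78 CPM). ROBO4, an endothelial receptor, was tested in A673 alone, at 5 counts summed over the siNeg libraries and 204 over the siFLI1 libraries (ratio of rates 42.4, 95% interval 17.9 to 132, counting error only). Genes of the opposite strand cover 18% of ROBO4's exon bases.

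The largest line differences of all belonged to SEMA5B and NTN1. SEMA5B (chr3:122909082-123028605, minus strand), a semaphorin with thrombospondin repeats, was at 0.963, 0.98 and 1.26 CPM in TC-32 controls and at 54.5, 61.5 and 58.1 CPM with siFLI1. TC-71 gave SEMA5B values of 7.09, 6.03 and 6.18 CPM and 19.2, 20.5 and 20.3 CPM. A673 gave SEMA5B values of 2.39, 2.66 and 1.97 CPM and 0.0429, 0.12 and 0.184 CPM. The log2 fold changes were 5.76 (SE 0.109), 1.63 (SE 0.0921) and -4.33 (SE 0.253) (edgeR, adjusted p at most 1.8e-10), and no groups overlapped. The TC-32 effect was 10.11 log2 units above the A673 effect (edgeR interaction test, adjusted p = 2.63e-27). A 6-unit GGAA run lay 2417 bases upstream of its GENCODE start, the closest such run among the members. The same gap between TC-32 and A673 was 7.37 log2 units for NTN1 (edgeR interaction test, adjusted p = 9.3e-25), and for ROBO2 4.22 (edgeR interaction test, adjusted p = 8.16e-19). SEMA4A, a semaphorin of immune cells and retina, rose in TC-32 from 4.9, 3.81 and 3.83 to 8.47, 8.7 and 8.9 CPM. SEMA4A fell in TC-71 from 3.08, 3.3 and 3.61 to 1.72, 1.07 and 1.8 CPM and stood at 1.33, 1.6 and 1.21 and 1.01, 0.927 and 1.15 CPM in A673. Its log2 fold changes were 1.06 (SE 0.12), -1.10 (SE 0.191) and -0.42 (SE 0.143) (edgeR adjusted p = 1.69e-08, 8.23e-06 and 0.0146), and the A673 call was lost under 3 alternatives.

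**Figure D5:**
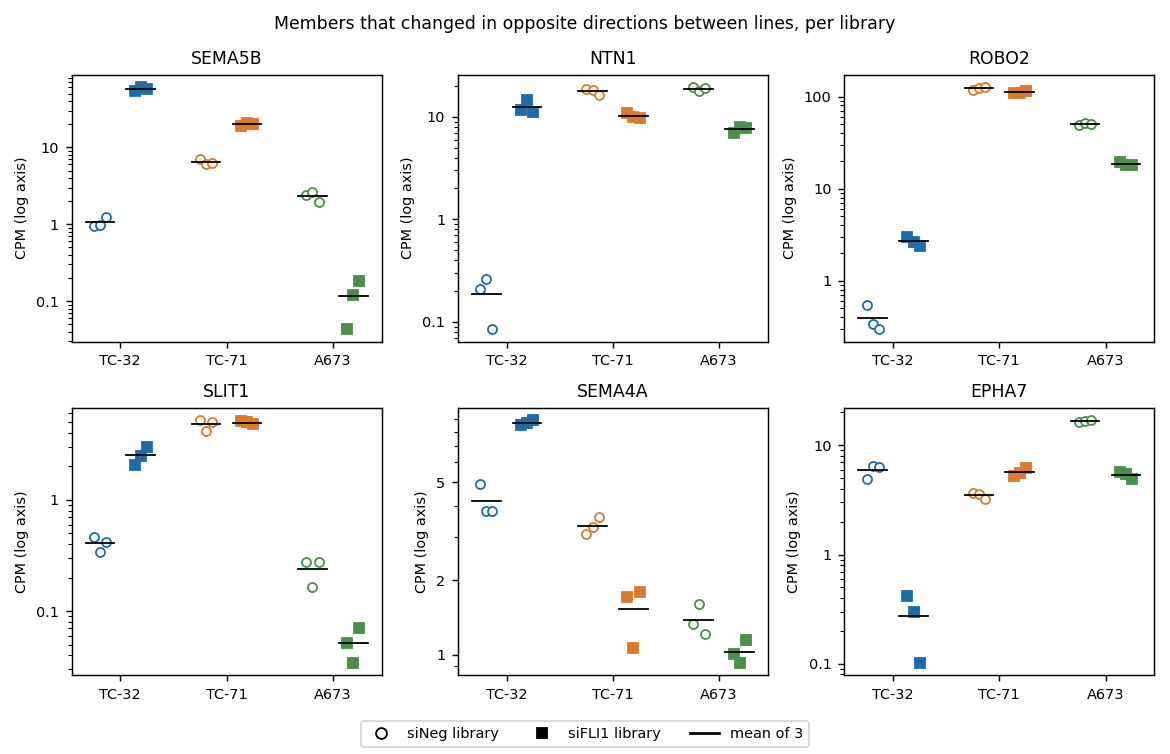
CPM in each library (log y axis) of 6 members that rose in one line and fell in another (x axis), open circles for siNeg, filled squares for siFLI1, bars for the mean of 3. SEMA5B, NTN1, ROBO2 and SLIT1 rise in TC-32 and fall in A673, and EPHA7 falls in TC-32 and A673 and rises in TC-71.

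The effect of siFLI1 on the members often depended on the line. Of 61 members tested over all 18 libraries, the effect differed between TC-32 and A673 for 45, against 62.1% of 19610 genes (edgeR interaction test). It differed between TC-32 and TC-71 for 38, against 53.6%, and between A673 and TC-71 for 41, against 51.6%. For 28 members it differed in every pair, against 26.6% of the same genes. Since TC-71 was counted with another program than the other 2 lines, per the table names, line and counting method cannot be told apart in the differences that involve TC-71. The tables of TC-32 and A673 name the same program. The extent of the FLI1 fall also differed between the lines, the A673 libraries were deeper, and the time for A673 was not given. Line cannot be told apart from these either, and their part in the differences was not tested.

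Partners outside the symbol rule were followed through gene lists, which were chosen with earlier results of these data known. Of 17 co-receptors and other guidance receptors, 11 of 15 tested rose and 3 fell in TC-32, 8 of 13 rose and 3 fell in TC-71, and 7 of 13 rose and 5 fell in A673, with 6 that rose and 2 that fell in all lines. NRP1 and NRP2, the neuropilins that bind the secreted semaphorins, were among those that rose. NRP1 went from 12.9, 11.9 and 12.1 to 183, 176 and 173 CPM in TC-32, with log2 fold changes of 3.85, 3.00 and 2.88 in TC-32, TC-71 and A673 (edgeR, adjusted p at most 9.78e-18). NRP2 went from 1.93, 1.39 and 1.6 to 29.1, 30.4 and 31 CPM in TC-32, with log2 fold changes of 4.20, 2.47 and 3.52 (edgeR, adjusted p at most 3.02e-17). Both neuropilins therefore rose beside PLXNA1 and PLXNA3 in every line, while PLXNA2 and PLXNA4 were too low to test in TC-71. L1CAM, an adhesion molecule that joins NRP1 in the receptor for SEMA3A, went from 1.05, 1.24 and 1.47 to 375, 439.5 and 394 CPM in TC-32, with log2 fold changes of 8.32, 5.40 and 5.85 (edgeR, adjusted p at most 2.56e-11). PLXDC1, a plexin-domain protein of tumour vessels, rose by log2 fold changes of 2.77, 1.19 and 2.05 (edgeR, adjusted p at most 3.57e-05). The 8 other guidance ligands divided otherwise: 1 of 6 tested rose and 4 fell in TC-32, 4 of 7 rose and 3 fell in TC-71, and 2 of 8 rose and 5 fell in A673. These few genes stand against the same all-gene shares.

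Downstream of the receptors, 50 intracellular effectors had smaller median log2 fold changes than the members, a difference that was not tested: 0.12, 0.34 and 0.27 for TC-32, TC-71 and A673. In TC-32, 23 of 47 tested rose and 18 fell, in TC-71 27 of 46 rose and 9 fell, and in A673 28 of 46 rose and 13 fell. In all 3 lines 12 rose and 5 fell. Those that rose at least 2-fold in every line were MICAL2, RND3 and TRIO. MICAL2, an actin-oxidising enzyme of the family that acts below plexins, rose by log2 fold changes of 3.58, 3.07 and 4.70 in TC-32, TC-71 and A673 (edgeR, adjusted p at most 1.86e-13). RND3, a GTPase that opposes RHOA, rose by 1.28, 4.95 and 3.82 (edgeR, adjusted p at most 1.83e-16), and TRIO, an exchange factor for RAC1 used by netrin signalling, by 1.20, 1.15 and 1.19 (edgeR, adjusted p at most 2.06e-14). TRIO's change was nearly the same in each line, while that of RND3 was smallest in TC-32, where its control level was highest, at 37.7, 38.7 and 35.6 CPM.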

How the data were processed

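Total RNA of 18 libraries was sequenced after stranded mRNA library preparation, per the labels' protocols, and the authors deposited 1 table per line. The TC-32 and A673 tables hold the authors' expected counts per gene (RSEM, by the table names), rounded here to whole numbers, and the TC-71 table holds the authors' whole-number counts (Subread, by the table name). Per the submitters' processing notes, cutadapt 4.4, STAR 2.7.3, featureCounts, Subread 2.0.3 and limma 3.38.3 were used on GRCh38. The annotation release, strand setting and filters were not given in the sources used here, and the order of steps was not stated. The line of the TC-32 and TC-71 columns rests on the table names, since the column names carry only siRNA and replicate.

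Each line was fitted alone on its whole table with edgeR 4.0.16 in R 4.3.3: filterByExpr, TMM scaling, robust quasi-likelihood F-test and Benjamini-Hochberg adjustment over all genes tested. Differences between lines came from 1 model of all 18 libraries with 1 mean per group. CPM used TMM-scaled library sizes, and RPKM divided CPM by the union of GENCODE release 44 exons, which also gave coordinates. The fits were checked on simulated data. All 66 members could be named. Values of every library are given for the members called alike in all lines, for those called oppositely with at least 2-fold each way and for the member with the largest fold change in its family (mean log2 CPM 1 or more). Other values are group means. Of the gene lists, genes called alike in all lines with at least 2-fold in each were named, with NRP1, NRP2, DCC, NEO1 and FLI1 always, and CD99 was added after its values were seen. Members and lists were chosen with earlier results of these data known. Alternatives were RLE size factors, library size alone, no filter beyond 1 count, DESeq2 1.42.0, a filter at a mean of 10 counts, a replicate block, limma-voom with limma 3.58.1, only the 12 libraries of the lines compared, and each library left out.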

Additional observations from a re-analysis of the deposited data

Results flagged for a closer look

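By the edgeR interaction test over 61 members, the response to siFLI1 was not the same in TC-32 as in A673 for 45 of them, in TC-32 as in TC-71 for 38, and in A673 as in TC-71 for 41. Of all 19610 genes tested, 62.1%, 53.6% and 51.6% differed in the same pairs. For 18 members the effect was called in opposite directions in a pair of lines and the difference itself passed the test. Opposite calls were made for 20.2% of the 17075 genes tested in at least 2 lines. Each value below is the difference of the log2 fold changes in the pair with the widest gap between opposite calls.

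Between TC-32 and A673, the difference (TC-32 minus A673) was 10.11 for SEMA5B, 7.37 for NTN1, 4.82 for SLIT1, 4.22 for ROBO2, 3.01 for UNC5B, 2.54 for SEMA6A and 0.41 for EPHB4. All of these rose in TC-32 and fell in A673. Between TC-32 and TC-71, the difference (TC-32 minus TC-71) was 2.84 for EPHB3 and 2.15 for SEMA4A, which rose in TC-32 and fell in TC-71, and -5.17 for EPHA7 and -2.63 for SEMA3A, which fell in TC-32 and rose in TC-71. Between A673 and TC-71, the difference (A673 minus TC-71) was 1.59 for EPHA4 and 0.91 for SLIT2, which rose in A673 and fell in TC-71. It was -3.57 for SEMA3D, -2.96 for NTN3, -2.58 for EPHA5, -1.59 for EFNB3 and -1.31 for SEMA6C, which fell in A673 and rose in TC-71. In A673 the call of NTN3 (edgeR adjusted p = 0.0499) was lost under 8 alternatives and that of SLIT2 under 1.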

How the results depend on the processing

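The 176 counts of calls recomputed under alternatives all stayed within 1.5 times of the reported count. Leaving out 1 library gave 44 to 47 called members in TC-32, 44 to 47 in TC-71 and 52 to 54 in A673, 19 to 21 members called alike in all lines and 17 to 20 called oppositely. Of 2127 recomputed fold changes of single members, 2074 kept their direction and side of the threshold, 35 lost a call, 11 gained one and 7 changed sign, none of them called. With 1 library left out, the log2 fold changes that crossed 0 ranged from -0.017 (without siNeg 3) to 0.16 for EFNA4 in TC-71, from -0.78 to 0.14, 0.26 and 0.049 (without siNeg 1, siFLI1 1 and siFLI1 3) for NTN5 in A673, from -0.0075 (without siNeg 2) to 0.15 for SEMA4G in TC-71, from -0.077 to 0.038 (without siFLI1 1) for SEMA4G in A673, and from -0.053 (without siNeg 2) to 0.097 for SLIT1 in TC-71. The cause was not tested. A called member lost its call under at least 1 alternative in 8 of 164 tests.

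Same-numbered libraries of the siRNAs did not deviate together (correlations from -0.078 to 0.042), and the main fits used no pairing. These correlations cannot show whether same-numbered libraries were handled together. With the replicate block, 44, 44 and 55 members were called in TC-32, TC-71 and A673, 20 alike and 18 oppositely, and 43, 37 and 39 differed between TC-32 and A673, TC-32 and TC-71, and A673 and TC-71. Depth limits the members near the low-count filter, above all in TC-32 and TC-71, whose libraries are smaller than those of A673.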
